A study of Mus musculus with 4 samples.

Results

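The Hox genes of the mouse were followed in 2 keratinocyte lines, MK2 and MK1. Members were all rows of the count table named Hox, a cluster letter from a to d and a number. The rule used names and no measured values, but it was set with earlier results of these data known. This gave 39 of 23420 gene rows, of which 11 lay in Hoxa, 10 in Hoxb, 9 in Hoxc and 9 in Hoxd. RNA was sequenced from 2 biological replicate cultures of MK2 and 2 of MK1, with no treatment named for either line. The labels name keratinocyte as the cell type of both and give no strain, age, sex or body site of origin. Each line is 1 line, so a p-value here weighs a difference against the spread between cultures and says nothing of other keratinocyte lines.

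Hox genes encode homeodomain transcription factors that give cells an address along the body axis. They lie in clusters whose genes are numbered into paralog groups from the 3′ end to the 5′ end, and low numbers are used toward the head and high numbers toward the tail and the ends of the limbs. Skin cells keep much of the Hox pattern of the site they came from, and Polycomb group complexes keep the unused part of a cluster silent. Genes of the same number in different clusters are paralogs and often act in place of one another.

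Libraries held 25237391 and 28601806 counts for MK2 and 30261111 and 26693849 counts for MK1. Levels are given in CPM, read counts per 1000000 counts of the scaled library, and levels of different genes are compared only in TPM, which also takes account of gene length. Over the 10 basal keratinocyte markers the summed level was 24005 and 20970 CPM in MK2 and 25250 and 25337 CPM in MK1, and Krt5, a keratin of the basal layer, had 8859 and 7021 CPM in MK2 and 7950 and 8109 CPM in MK1. Of these 10 markers 1 was higher in MK2, 3 were lower and 6 did not pass. Itga6, an integrin of the basal layer, stood at 565 and 572 CPM in MK2 and 321 and 320.0 CPM in MK1. The lower ones were Col17a1, a hemidesmosome collagen, with 1395 and 1560.2 CPM in MK2 and 3287 and 2876 CPM in MK1, and the desmosome genes Perp and Dsg3, by log2 fold changes of −0.57 and −0.44. Among other cell types, 6 of 7 B lymphocyte markers were tested and all 6 were lower in MK2. Their sum was 0.238 and 0.0705 CPM in MK2 and 30.6 and 30.7 CPM in MK1, of which Cd74 gave 0.119 and 0 CPM in MK2 and 17.9 and 17.7 CPM in MK1. Cd79a had 0.119 and 0 CPM in MK2 and 2.93 and 3.13 CPM in MK1, Ptprc had 0 and 0.0353 CPM in MK2 and 2.80 and 2.38 CPM in MK1, and the defining markers Cd79b and Ms4a1 had 0 counts in MK2. The 9 fibroblast markers summed to 1.03 and 1.41 CPM in MK2 and 3.95 and 3.35 CPM in MK1, with Pdgfra, 1 of 2 tested markers, lower at 0.318 and 0.987 CPM in MK2 and 3.22 and 2.53 CPM in MK1, and the defining markers Dcn, Lum and Pdgfrb at 0 in all 4 libraries. The 8 T lymphocyte and myeloid markers summed to 0.397 and 0.353 CPM in MK2 and 1.22 and 1.34 CPM in MK1, with 1 tested marker, Csf1r, lower. The 7 melanocyte markers summed to 3.54 and 3.98 CPM in MK2 and 6.08 and 5.36 CPM in MK1, with Mitf lower at 0.556 and 0.705 CPM in MK2 and 3.35 and 2.68 CPM in MK1 and Dct at 0 in all libraries. The 5 endothelial markers summed to 25.4 and 27.4 CPM in MK2 and 17.8 and 14.9 CPM in MK1. Nearly all of that sum was Kdr, which was higher at 24.4 and 26.2 CPM in MK2 and 17.1 and 14 CPM in MK1, while the defining markers Cdh5 and Emcn were at 0 in all libraries. Leaving out MK1 replicate 1 ended the calls of Dsg3, Pdgfra and Csf1r, leaving out MK1 replicate 2 those of Dsg3, Perp and Kdr, and leaving out MK2 replicate 2 that of Dsg3. Several of these sums were lower in MK2 together with most Hox members, and their part in the Hox results was not tested. In such bulk RNA, fewer cells that use a gene and less RNA of it per cell cannot be told apart.

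MK2 had less Hox RNA than MK1, and the shortfall was uneven between the clusters. Hoxd members had 0 counts in MK2, while 6 of the 9 were detected in MK1, Hoxc members from Hoxc4 to Hoxc9 were at or near 0 in MK2, and Hoxa and Hoxb stayed in use in both lines with part of their genes lower in MK2. A single member, Hoxc13 at the 5′ end of Hoxc, was higher in MK2. Of 39 members, 26 had enough counts for edgeR's quasi-likelihood test (Benjamini-Hochberg adjusted over all genes), and 18 were lower in MK2, 1 was higher and 7 did not pass. Over all 12479 genes tested, 28.6% were lower in MK2 and 25.9% were higher, 54.6% in all, so that a call as such was common in this comparison. Under the stricter test for a change beyond a log2 fold change of 1 (glmTreat), 11 members were lower and 1 was higher, where 10.1% of all genes were lower and 3.25% higher. Of those 11, all but Hoxa9 and Hoxb8 had enough counts through MK1 alone, so they could only come out lower. Hoxc13 had enough counts through MK2 alone and could only come out higher. Without MK1 replicate 1 the counts over all genes were 2189 lower and 1527 higher in place of 3575 and 3235, with 13 members lower, and without MK1 replicate 2 they were 2494 lower and 1875 higher, with 16 members lower.

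The test could only see part of the members. Of the 13 that were not tested, 6 had 0 counts in all 4 libraries (Hoxa13, Hoxc11, Hoxc12, Hoxd1, Hoxd12 and Hoxd13) and the others had few counts in 1 line. Another 10 of the 26 passed the count filter through 1 line alone, 9 through MK1 and 1 through MK2, and could differ in 1 direction only. The 16 members with at least 10 counts in every library were free of that limit, and 9 of them were lower in MK2, 0 were higher and 7 did not pass, with a median log2 fold change of −0.48. Among all 11199 genes with such counts 25.0% were lower, 26.9% were higher, and the median was 0.03.

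The lines also differed in how many members were in use. With a level of 1 CPM or more in both cultures taken as use, MK2 used 17 members and MK1 used 22. In Hoxa 8 members were used in MK2 and 8 in MK1, and in Hoxb 8 in MK2 and 8 in MK1. In Hoxc 1 member was used in MK2 and 4 in MK1, and in Hoxd 0 in MK2 and 2 in MK1. Members with 0 counts in both cultures numbered 18 in MK2 and 7 in MK1. A stricter pattern, 1 CPM or more in both MK1 cultures and at most 3 counts over both MK2 cultures, was met by 7 members (Hoxa10, Hoxc5, Hoxc6, Hoxc8, Hoxc9, Hoxd8 and Hoxd9), while 1.40% of the 11192 genes at that level in MK1 met it. The reverse pattern was met by no member and by 0.299% of 10700 genes.

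**Figure D1:**
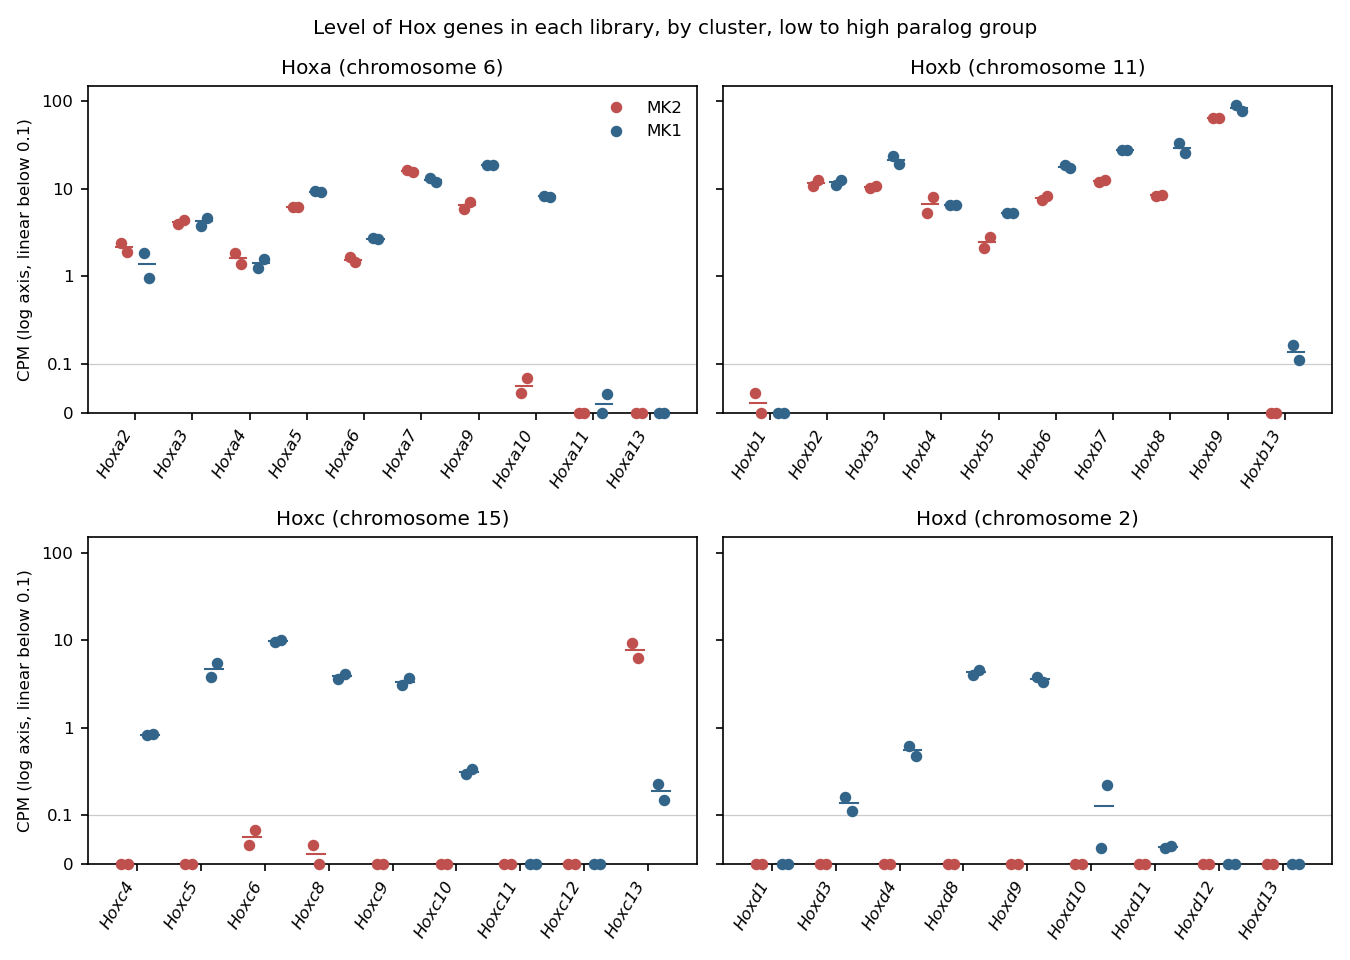
Level of Hox members in CPM, on a symmetric log axis that is linear below 0.1, for the 2 MK2 cultures (red, left) and the 2 MK1 cultures (blue, right), with bars at the mean and 1 panel per cluster in paralog order. Hoxd points of MK2 all lie at 0, and Hoxc13 is the Hoxc member that stands high in MK2.

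Summed over members, Hox RNA stood at 180.3 and 187.7 CPM in MK2 and at 318.8 and 295.3 CPM in MK1, 1.67-fold lower in MK2 with no overlap between the lines. The Hoxb sum was 122 and 128 CPM in MK2 and 218 and 193 CPM in MK1, a log2 ratio of −0.72. The Hoxa sum was 49.3 and 53.0 CPM in MK2 and 71.1 and 69.0 CPM in MK1, a log2 ratio of −0.45. Hoxa and Hoxb were thus the clusters that lost least. The Hoxc sum was 9.45 and 6.38 CPM in MK2 and 21.3 and 24.7 CPM in MK1, a log2 ratio of −1.54, and nearly all that remained of it in MK2 was Hoxc13. Without Hoxc13 the other Hoxc members had 4 counts over both MK2 cultures and 1302 over both MK1 cultures, 304-fold lower in MK2 (95% exact interval 119 to 1118). The Hoxd sum was 0 in both MK2 cultures and 8.71 and 8.86 CPM in MK1, which is 0 against 503 counts and at least 157-fold lower at a floor of 3 counts over the MK2 cultures. These intervals and floors cover counting error only, and no test was made on sums of members.

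**Figure D2:**
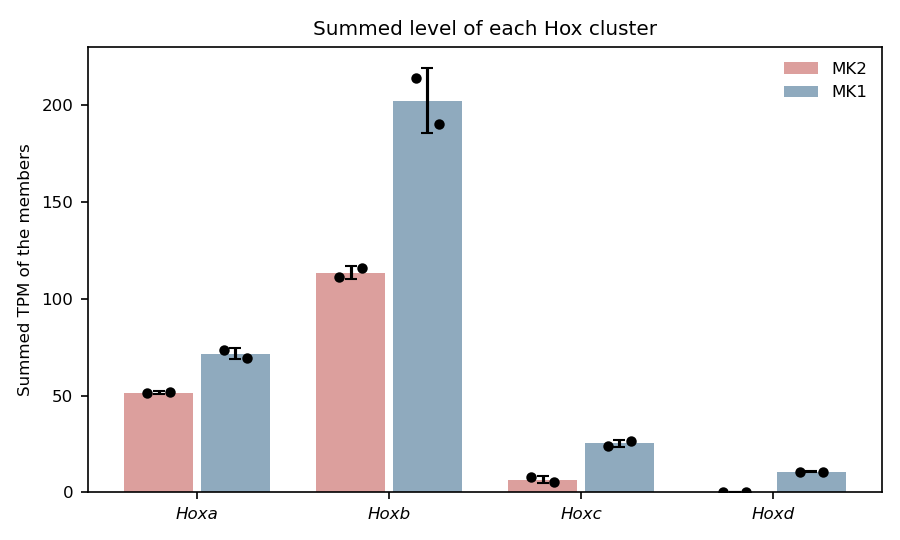
Summed TPM of the members of each cluster, with bars at the mean of 2 cultures, error bars of 1 SD and points for the cultures, MK2 left and MK1 right. Hoxb was the most abundant cluster in both lines, at 113 ± 3.49 TPM in MK2 and 202 ± 16.8 TPM in MK1, and Hoxd was at 0 in MK2 and 10.7 ± 0.179 TPM in MK1.

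Per length, the order of the clusters was Hoxb, Hoxa, Hoxc and Hoxd in both lines. Hoxb gave 66.1% of all Hox TPM in MK2 and 65.2% in MK1, Hoxa 30.1% in MK2 and 23.1% in MK1, Hoxc 3.82% in MK2 and 8.21% in MK1, and Hoxd 0% in MK2 and 3.45% in MK1. The most abundant member of both lines was Hoxb9, a gene of posterior paralogs, at 48.2 ± 0.725 TPM in MK2 and 65.6 ± 7.89 TPM in MK1 (SD, n = 2 cultures each). It made up 28.1% of Hox TPM in MK2 and 21.1% in MK1. Hoxb7 came second in both lines, at 19.2 TPM in MK2 and 45.9 TPM in MK1. Below these the orders parted. Hoxb8 was 9th in MK2 and 4th in MK1, Hoxc6 18th in MK2 and 8th in MK1, and Hoxc13 8th in MK2 and 28th in MK1.

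The Hoxd cluster spans 96.8 kb of chromosome 2 on the plus strand (74668310 to 74765142, mm10), and its posterior genes pattern the limbs and the genital bud. Hoxd8 (74705489 to 74707307), which is used in the trunk, had 0 counts in both MK2 cultures and stood at 4.01 and 4.62 CPM in MK1. It was at least 76.7-fold lower in MK2, with an edgeR adjusted p of 1.51e-04. Hoxd9 (74697763 to 74700208), a gene of the limb and lumbar region, had 0 counts in both MK2 cultures and stood at 3.85 and 3.39 CPM in MK1. The bound was 64.8-fold lower in MK2, with an edgeR adjusted p of 1.83e-04. Hoxd4, a gene of the neck region, had 0 counts in MK2 and 0.625 and 0.484 CPM in MK1, at least 9.97-fold lower in MK2 (edgeR adjusted p = 0.00232). Every detected Hoxd member was thus detected in MK1 alone, so those tested could only come out lower. Hoxd3 with 5 and 3 counts, Hoxd10 with 1 and 6 counts and Hoxd11 with 1 and 1 counts in MK1 had 0 counts in MK2 and were too low for the test, and Hoxd1, Hoxd12 and Hoxd13 had 0 counts in all libraries.

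In the Hoxc cluster, 115.7 kb of chromosome 15 on the plus strand (102921131 to 103036852), 5 of 6 tested members were lower in MK2 and 1 was higher. Hoxc13 had enough counts through MK2 alone and the other tested members through MK1 alone, so each could differ in 1 direction only. Over all genes tested, 28.6% were lower and 25.9% higher. Hoxc6 (103009562 to 103011881), a gene of the thoracic region, had 0.0397 and 0.0705 CPM in MK2, 3 counts in all, against 9.47 and 10.1 CPM in MK1. The ratio was 174-fold lower in MK2 (95% exact interval 59.2 to 846; edgeR adjusted p = 2.03e-05). Hoxc5 (103014008 to 103017429) had 0 counts in MK2 and 3.81 and 5.51 CPM in MK1, at least 82.3-fold lower in MK2 (edgeR adjusted p = 2.29e-04). Both sat side by side as the second and the third member from the 3′ end, and neither had more than 3 counts in MK2. Hoxc8 (102990539 to 102994254), which patterns the lower thorax, had 0.0397 and 0 CPM in MK2, a single count, against 3.62 and 4.13 CPM in MK1 (207-fold lower in MK2, with a 95% exact lower limit of 36.7; edgeR adjusted p = 1.31e-04). Hoxc9 (102977032 to 102984444) had 0 counts in MK2 and 3.09 and 3.69 CPM in MK1, at least 60.1-fold lower (edgeR adjusted p = 2.07e-04). Hoxc4 at the 3′ end had 0 counts in MK2 and 0.822 and 0.856 CPM in MK1, at least 15.0-fold lower (edgeR adjusted p = 0.00107). Hoxc10, with 0 counts in MK2 and 9 and 9 in MK1, was not tested and was at least 5.61-fold lower.

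Hoxc13 (102921131 to 102928814) went the other way. This most 5′ member drives hair and nail keratin genes in the differentiating hair shaft. It stood at 9.37 and 6.31 CPM in MK2, from 236 and 179 counts, against 0.230 and 0.149 CPM in MK1, from 7 and 4 counts. Both MK2 cultures lay far above both MK1 cultures, with a log2 fold change of 5.32 (SE 0.37, edgeR adjusted p = 1.02e-04), and the value lay between 5.01 and 5.67 under every other setting tried. Hoxc12 and Hoxc11, the next members at distances of 8.038 and 16.008 kb between genes, had 0 counts in all libraries, so the higher level ended with this gene. Among its known targets and partners, the list of hair keratins, Foxn1 and Padi3 had 18 genes, of which 3 were tested, 0 were higher in MK2 and 1 was lower. Padi3, a deiminase of the hair shaft, stood at 3.06 and 2.36 CPM in MK2 and 9.17 and 16.3 CPM in MK1 (log2 fold change −2.23, edgeR adjusted p = 0.00148). Foxn1, the forkhead factor downstream of Hoxc13 in the hair follicle and nail, stood at 11.3 and 10.1 CPM in MK2 and 12.1 and 14.4 CPM in MK1 and did not pass. Krt32, a hair keratin, stood at 1.91 and 0.106 CPM in MK2 and 1.78 and 2.46 CPM in MK1 and did not pass, and the other 15 genes were below 1 CPM in every library.

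**Figure D3:**
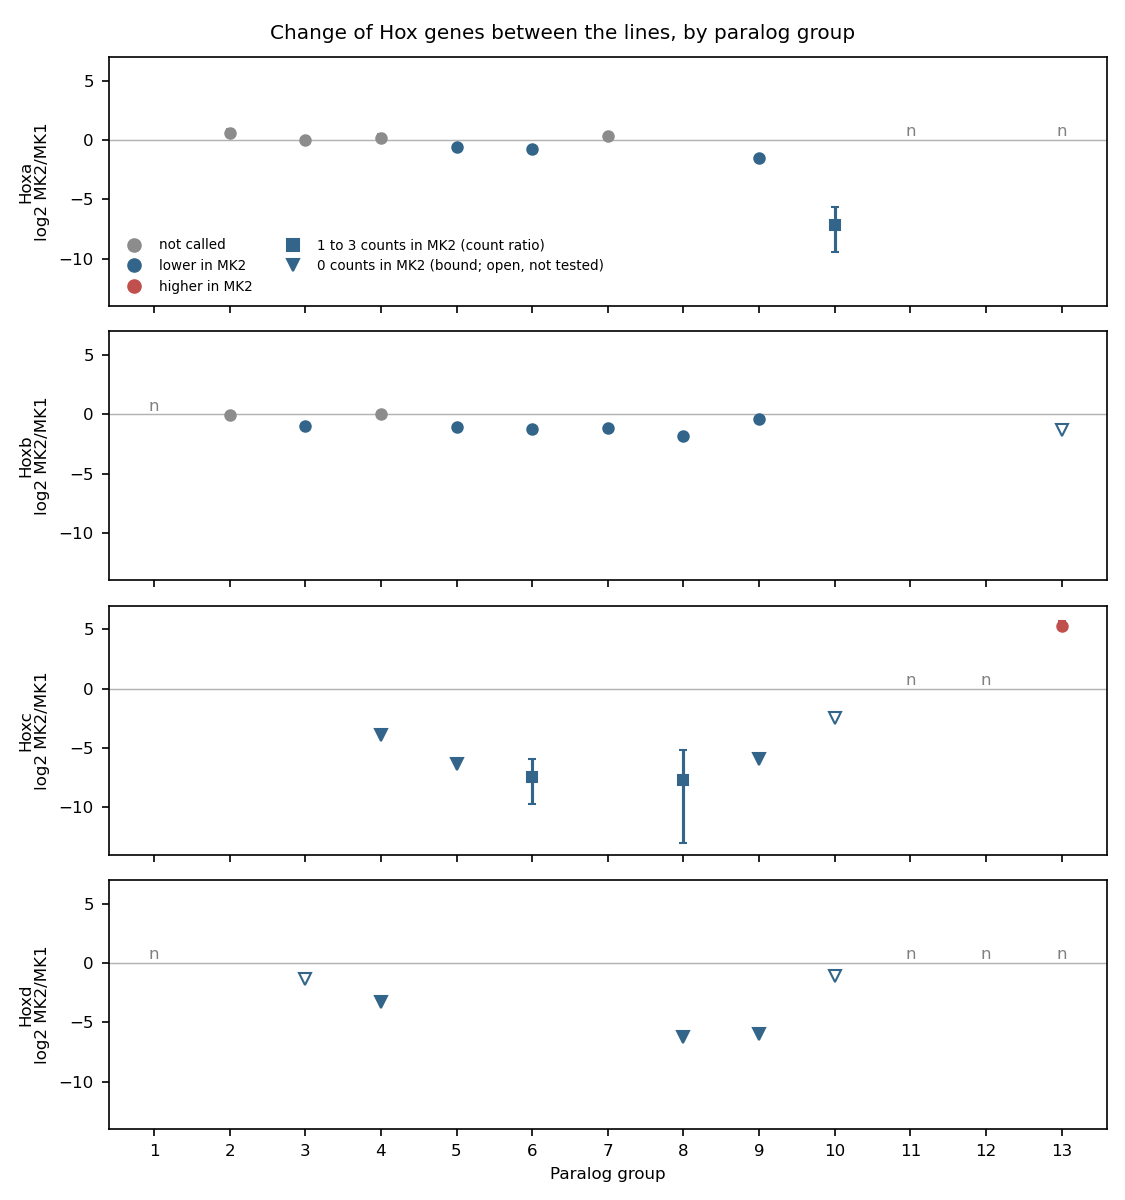
Log2 fold change of MK2 over MK1 by paralog group, 1 panel per cluster. Circles are fitted values with SE bars, mostly hidden by the marker, squares are count ratios with 95% intervals for members with 1 to 3 counts in MK2, triangles are bounds for members with 0 counts in MK2 (open where not tested), and n marks members with no fold. Hoxc13 stands alone above 0 among called members, the lowest fitted value of Hoxb is that of Hoxb8, and Hoxa falls furthest at Hoxa10.

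The Hoxa cluster, on the minus strand of chromosome 6, split along its length. Of 9 tested members 4 were lower in MK2, 0 were higher and 5 did not pass. Those without a call included Hoxa2 to Hoxa4 and Hoxa7. Hoxa2, the selector gene of the branchial arches, stood at 2.42 and 1.90 CPM in MK2 and 1.84 and 0.968 CPM in MK1. Hoxa3, which the thymus and parathyroid need, stood at 4.01 and 4.41 CPM in MK2 and 3.81 and 4.69 CPM in MK1. In Hoxa3 the lines overlapped, and in Hoxa2 the lower MK2 culture lay just above the higher MK1 culture. Hoxa4 stood at 1.87 and 1.38 CPM in MK2 and 1.25 and 1.56 CPM in MK1. Hoxa7, a gene of the trunk, stood at 16.4 and 15.4 CPM in MK2 and 13.3 and 12.0 CPM in MK1, with both MK2 cultures above both MK1 cultures and an edgeR adjusted p of 0.0933.

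The called Hoxa members were Hoxa5 and Hoxa6 in mid-cluster and, beyond the uncalled Hoxa7, Hoxa9 and Hoxa10. Hoxa5 (52201754 to 52204587), which lung and neck vertebrae need, stood at 6.16 and 6.21 CPM in MK2 and 9.41 and 9.20 CPM in MK1 (log2 fold change −0.59, SE 0.16, edgeR adjusted p = 0.0202). Hoxa6 stood at 1.67 and 1.45 CPM in MK2 and 2.76 and 2.64 CPM in MK1 (log2 fold change −0.80, SE 0.24, edgeR adjusted p = 0.0285). Both calls were slight: without MK1 replicate 1 the edgeR adjusted p was 0.114 for Hoxa5 and 0.155 for Hoxa6, without MK1 replicate 2 it was 0.0916 for Hoxa5 and 0.118 for Hoxa6, and Hoxa then had 2 lower members in place of 4. Hoxa6 also lost its call with DESeq2 (adjusted p = 0.142) and without MK2 replicate 2 (edgeR adjusted p = 0.0982). Over the 12 other settings the adjusted p ran from 0.0143 to 0.114 for Hoxa5 and from 0.0205 to 0.155 for Hoxa6.

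Hoxa9 and Hoxa10 held their calls in every setting. Hoxa9 (52224054 to 52227370), known from blood stem cells and from the lumbar body wall, stood at 5.84 and 7.12 CPM in MK2 and 18.7 and 18.6 CPM in MK1 (log2 fold change −1.52, SE 0.16, edgeR adjusted p = 5.08e-04). Hoxa10 (52231197 to 52240854), which the uterus and hindlimb need, had 0.0397 and 0.0705 CPM in MK2, 3 counts in all, against 8.35 and 8.12 CPM in MK1. That was 147-fold lower in MK2 (95% exact interval 50.0 to 716; edgeR adjusted p = 2.57e-05). Only 3.826 kb separate these 2 genes in the table, and across that gap the level in MK2 dropped out. Hoxa11 had 1 count in MK1 and 0 in MK2 and Hoxa13 had 0 in all, so in both lines the cluster was silent beyond Hoxa10, and 23.4% of the exons of Hoxa11 overlap its antisense gene.

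The 250 bases before the starts of Hoxa9 and Hoxa10 are shown because the in-use end of Hoxa in MK2 lay between them. They are from RefSeq on GRCm38.p6, 5′ to 3′ on the minus strand, with each CG pair in capitals. Hoxa10 has a second annotated start 5915 bases inside the deposited gene, and both windows are given.
Hoxa9 chr6:52227371-52227620: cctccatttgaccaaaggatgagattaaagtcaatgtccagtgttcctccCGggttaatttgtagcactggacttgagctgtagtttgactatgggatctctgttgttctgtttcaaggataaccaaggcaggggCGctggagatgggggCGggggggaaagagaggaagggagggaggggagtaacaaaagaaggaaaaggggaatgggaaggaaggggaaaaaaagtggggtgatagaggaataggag
Hoxa10, deposited start, chr6:52240855-52241104: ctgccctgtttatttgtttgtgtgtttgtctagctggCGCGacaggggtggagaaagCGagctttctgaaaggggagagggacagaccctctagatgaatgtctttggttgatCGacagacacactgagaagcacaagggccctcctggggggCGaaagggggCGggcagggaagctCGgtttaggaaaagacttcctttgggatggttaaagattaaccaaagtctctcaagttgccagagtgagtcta
Hoxa10, inner start, chr6:52234940-52235189: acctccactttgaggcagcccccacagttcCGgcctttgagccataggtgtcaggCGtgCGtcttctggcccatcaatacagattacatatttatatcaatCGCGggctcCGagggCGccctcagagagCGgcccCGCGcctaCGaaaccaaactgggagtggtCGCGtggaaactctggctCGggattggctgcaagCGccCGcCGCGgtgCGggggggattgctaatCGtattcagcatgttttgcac
The Hoxa9 window holds 3 CG pairs, the outer Hoxa10 window 7 and the inner Hoxa10 window 20, against a median of 6 over 27025 promoters of this length. Promoters of this kind were found for 22 of 39 members. The 8 of these with a mean of 1 CPM or more in both lines had 3 to 28 CG pairs and a median of 13. The 3 members with such a mean in MK1 and at most 3 counts in MK2 were Hoxa10, Hoxd8 and Hoxd9. They had 6 to 13 by the annotated start at or nearest to the deposited one, which leaves out the inner Hoxa10 window. For Hoxd8 that annotated start was not the deposited one. The 7 members at most at 3 counts in both lines had 2 to 35 with a median of 13. The ranges lay within one another. The motif TGATTNAT, a site of Pbx and Hox proteins bound together, was searched on both strands and occurred in 1 of the 22 member promoters, that of Hoxa2, or 4.55%, and in 2.99% of all promoters, with each gene's deposited start, or the annotated start nearest to it, counted for members. A second annotated start of Hoxd11 also had 1 match in its window.

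The Hoxb cluster, 173.9 kb of chromosome 11 on the plus strand (96194361 to 96368253), was lower in MK2 over most of its length. Of 8 tested members 6 were lower in MK2, 0 were higher and 2 did not pass. The uncalled pair lay toward the 3′ end. Hoxb2, a gene of the hindbrain, stood at 10.8 and 12.5 CPM in MK2 and 11.1 and 12.6 CPM in MK1 (log2 fold change −0.02, SE 0.16). Hoxb4, known for expanding blood stem cells, stood at 5.36 and 8.0 CPM in MK2 and 6.58 and 6.59 CPM in MK1. In both the lines overlapped, and the MK2 cultures of Hoxb4 lay on either side of MK1.

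Hoxb3, which lies between that pair and shares hindbrain roles with its paralog Hoxa3, stood at 10.4 and 10.8 CPM in MK2 and 23.6 and 19.1 CPM in MK1 (log2 fold change −1.01, SE 0.16, edgeR adjusted p = 0.00224). Hoxb5, a gene of the foregut and shoulder region, stood at 2.11 and 2.82 CPM in MK2 and 5.29 and 5.29 CPM in MK1 (log2 fold change −1.10, SE 0.23, edgeR adjusted p = 0.00675). Hoxb6 (96299171 to 96301569) stood at 7.55 and 8.22 CPM in MK2 and 18.7 and 17.4 CPM in MK1 (log2 fold change −1.19, SE 0.15, edgeR adjusted p = 9.15e-04). In these 3 genes every MK2 culture lay below every MK1 culture. Hoxb7 (96286646 to 96290163), a trunk gene, stood at 11.9 and 12.5 CPM in MK2 and 28.0 and 27.7 CPM in MK1 (log2 fold change −1.19, SE 0.13, edgeR adjusted p = 5.17e-04). Hoxb8 (96281905 to 96285325), used in the trunk, in myeloid progenitors and in microglial precursors, stood at 8.26 and 8.60 CPM in MK2 and 33.5 and 25.7 CPM in MK1, and its log2 fold change of −1.81 (SE 0.17, edgeR adjusted p = 3.21e-04) was the furthest from 0 in Hoxb. Hoxb9 stood at 65.1 and 64.9 CPM in MK2 and 90.8 and 78.3 CPM in MK1 (log2 fold change −0.38, SE 0.11, edgeR adjusted p = 0.0281), so the most abundant Hox gene differed least among the called ones. Hoxb13, a gene of the tail and prostate 74.73 kb beyond Hoxb9, had 0 counts in MK2 and 5 and 3 in MK1, and Hoxb1 had a single count, in MK2.

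Of the Hoxb calls, those of Hoxb9 and Hoxb5 did not hold in every setting. For Hoxb9 the edgeR adjusted p was 0.193 without MK1 replicate 1, 0.0539 without MK2 replicate 1 and 0.0524 without MK2 replicate 2, and it ran from 0.0155 to 0.193 over the 12 other settings. For Hoxb5 it was 0.0543 without MK1 replicate 1 and ran from 8.74e-04 to 0.0543. Without MK1 replicate 1, Hoxb had 4 lower members in place of 6.

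Read by paralog number over Hoxa and Hoxb, the members in groups 1 to 4 were mostly without a call and those beyond were mostly lower in MK2. Groups 1 to 4 had 7 tested members, of which 1 was lower (Hoxb3) and 6 did not pass. Groups 5 to 8 had 7 tested members, of which 6 were lower and 1 (Hoxa7) did not pass, and groups 9 to 13 had 3 tested members, all 3 lower. Among these lower members, Hoxa5, Hoxa6, Hoxb5 and Hoxb9 lost their calls in at least 1 other setting. Hoxa10 passed the count filter through MK1 alone. Over the 4 clusters 3 of 9, 10 of 11 and 5 of 6 tested members were lower, and the other called one was Hoxc13. These counts include the 9 members that passed the count filter through MK1 alone and could only come out lower. Hoxc13 passed it through MK2 alone and could only come out higher. The difference between zones was not tested, since neighbours in a cluster are not independent, and the share of all genes called lower was 28.6%.

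Added up over paralogs, levels of the lines lay close together in group 2, which summed to 16.9 TPM in MK2 and 17.0 TPM in MK1. Group 4 summed to 7.32 TPM in MK2 and 8.63 TPM in MK1, with both MK2 cultures below both MK1 cultures. Groups 3 to 9 were lower in MK2 as sums. As a ratio of the lines, the widest gap among these was in group 8, with 6.39 TPM in MK2 and 33.2 TPM in MK1, where Hoxb8 was lower and both Hoxc8 and Hoxd8 were at or near 0 in MK2. Group 6 summed to 16.4 TPM in MK2 and 49.5 TPM in MK1, and group 9 to 53.9 TPM in MK2 and 90.5 TPM in MK1. Group 10 stood at 0.0350 TPM in MK2 and 5.98 TPM in MK1, group 13 at 6.46 TPM in MK2 and 0.384 TPM in MK1, and groups 11 and 12 were at or near 0 in both lines.

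Several microRNA genes lie inside the clusters, and miR-196 is known to repress Hox RNA of the trunk, Hoxb8 first of all. The mature sequences are from RefSeq (GRCm38.p6), 5′ to 3′, with the seed, bases 2 to 8, in capitals. They are shown because the miR-196 genes sit next to members that differed between the lines and because the miR-196 pair shares a seed, as does the miR-10 pair.
miR-196a-5p: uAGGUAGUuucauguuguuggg
miR-196b-5p: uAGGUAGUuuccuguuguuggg
miR-10a-5p: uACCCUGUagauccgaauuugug
miR-10b-5p: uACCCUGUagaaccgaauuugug
Mir196b (chr6:52230129-52230150 for the mature arm) lies between Hoxa9 and Hoxa10, Mir196a-1 (chr11:96265187-96265208) between Hoxb9 and Hoxb13, Mir196a-2 (chr15:102973365-102973386) in Hoxc, Mir10a (chr11:96317186-96317208) beside Hoxb4 and Mir10b (chr2:74726074-74726096) in Hoxd. Counts over these rows are reads of long RNA that crosses the hairpin and do not measure the mature microRNA. Mir196b, named here after its values were seen, had 0 counts in both MK2 cultures and 19 and 14 counts in MK1 (edgeR adjusted p = 0.00206), the same pattern as Hoxa10 next to it. Mir196a-1 had 88 and 78 counts in MK2 and 66 and 72 counts in MK1 and did not pass. Mir10a had 1 and 1 counts in MK2 and 5 and 4 counts in MK1, and Mir196a-2, Mir10b, Mir615 and the long noncoding Hotair of Hoxc had 0 in all libraries.

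The Hoxb8 3′ UTR carries the known miR-196 site, which pairs with 21 of its 22 bases to miR-196a. A script found it in GENCODE M21 on the plus strand at chr11:96284888-96284909 (GRCm38), and the lower-case base is the one without a Watson-Crick partner.
Hoxb8 site: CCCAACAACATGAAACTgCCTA
Because that base lies in the seed region, Hoxb8 had no exact seed match. The exact match ACTACCT, on the transcript strand of the longest annotated 3′ UTR, was found in 9 of 39 members, 4 times in Hoxa7, 2 times in Hoxc8 and once each in others such as Hoxa4, Hoxa5, Hoxa9, Hoxb1, Hoxb6 and Hoxb7. It occurred in 6.8% of 21153 coding genes and in 3.5% of the 14879 whose 3′ UTR lay in the members' range of lengths, 30 to 1987 bases. Carriers of the match included members that were lower in MK2 (Hoxa5, Hoxa9, Hoxb6, Hoxb7 and Hoxc8), members without a call (Hoxa4 and Hoxa7) and Hoxb1, which was not tested.

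Of 32 noncoding genes listed for the clusters 12 were matched to rows by name and the others were not analysed here. Of the 12, 5 were tested, with 1 higher in MK2, 1 lower and 3 without a call, where 25.9% of all genes were higher and 28.6% lower. Mira, a noncoding RNA beside Hoxa7 in Hoxa, stood at 18.4 and 17.0 CPM in MK2 and 12.9 and 11.5 CPM in MK1 (log2 fold change 0.54, edgeR adjusted p = 0.0197), but its call ended without MK1 replicate 1 (edgeR adjusted p = 0.0722) and without MK1 replicate 2 (0.124, range over 12 settings 0.00902 to 0.124). Its neighbour Hoxa7 had the same order of the lines without passing the test. Gm53 in Hoxb stood at 12.9 and 16.9 CPM in MK2 and 14.8 and 15.7 CPM in MK1 and did not pass. The counting set no strand option, so reads on exon bases that a transcript shares with its antisense partner are ambiguous between them. Such overlap holds for 1.1% of Hoxa3 and for Hoxa11 as given, and for no other member.

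The nearest genes outside the clusters, up to 910 kb away, did not share one direction. Of the 5 nearest rows on each side of each cluster, 40 in all, 26 were tested. In MK2 6 were higher, 6 were lower and 14 were without a call, and their median log2 fold change was 0.06. Over all genes tested 25.9% were higher and 28.6% lower, so calls were no more common among these neighbours. The 3 tested Hoxd members, which could only come out lower, were lower in MK2. The tested neighbours of Hoxd had a median of 0.44. Lnp (Lnpk), an endoplasmic reticulum gene 89.4 kb away, stood at 64.3 and 61.6 CPM in MK2 and 38.2 and 44.9 CPM in MK1. Atp5g3, Atf2 and Hnrnpa3, at 757, 776 and 894 kb, were higher in MK2 too, by log2 fold changes of 0.68, 0.40 and 0.47. All genes of chromosome 2 had a median of 0.36, against −0.01 on chromosome 6, 0.07 on chromosome 11 and −0.08 on chromosome 15.

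Near Hoxa the largest changes lay further off. Snx10, a sorting nexin 565 kb from the cluster, stood at 0.119 and 0.176 CPM in MK2 and 22.6 and 21.5 CPM in MK1 (log2 fold change −7.16, edgeR adjusted p = 8.08e-06), and Nfe2l3 beyond it at 0.199 and 0.705 CPM in MK2 and 11.0 and 9.46 CPM in MK1. Nearer the cluster, Skap2, an adaptor of blood cells, stood at 45.0 and 52.3 CPM in MK2 and 67.2 and 58.8 CPM in MK1, a log2 fold change of −0.37. Cbx3, a heterochromatin protein gene 672 kb away on the same side as Snx10, stood at 272 and 273 CPM in MK2 and 188 and 214 CPM in MK1. Skap1, 96.3 kb from Hoxb, stood at 0.159 and 0.423 CPM in MK2 and 3.95 and 3.43 CPM in MK1. Cbx1, 421 kb from Hoxb, stood at 66.2 and 54.1 CPM in MK2 and 33.5 and 40.9 CPM in MK1. Calcoco1, 199 kb from Hoxc, stood at 12.9 and 19.2 CPM in MK2 and 34.1 and 32.1 CPM in MK1. Hnrnpa1, 204 kb away, had 3.97 and 3.77 CPM in MK2 and 5.46 and 5.73 CPM in MK1, and both were lower in MK2. The Hnrnpa1 row overlaps that of Gm10052, which has the same start and strand and 0 counts in all libraries. Reads common to both rows may be missing from Hnrnpa1, so its CPM may understate the gene's level, which was not tested. The homeobox genes Evx1 and Evx2 at the 5′ ends of Hoxa and Hoxd had 0 counts in all libraries. Without MK1 replicate 1 the calls of Lnp, Atf2, Hnrnpa3, Cbx1, Cbx3, Skap2 and Hnrnpa1 ended, with edgeR adjusted p from 0.0619 for Lnp to 0.245 for Skap2. Without MK1 replicate 2 those of Atf2, Hnrnpa3, Skap2 and Hnrnpa1 ended, Hnrnpa1 and Skap2 also ended without MK2 replicate 1, and Hnrnpa1 without MK2 replicate 2, with DESeq2 and with no count filter.

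**Figure D4:**
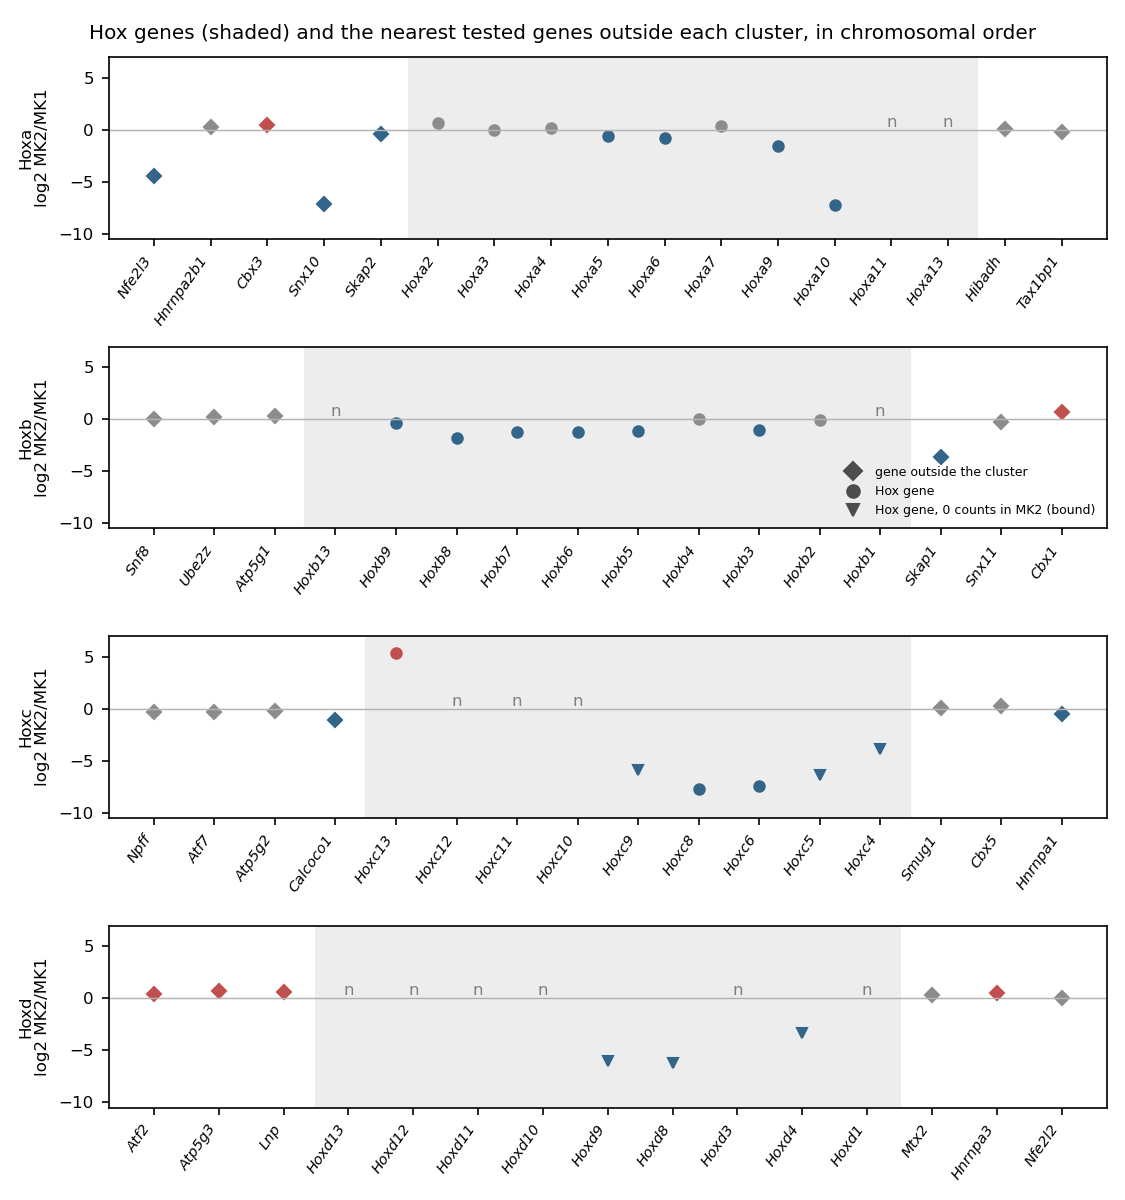
Log2 fold change of MK2 over MK1 in chromosomal order for Hox members (circles, shaded) and the nearest tested genes outside each cluster (diamonds), with triangles for bounds and n for members not tested. Red is higher in MK2, blue lower and grey not called. The Hoxd neighbours lie at or above 0 while the Hoxd members lie below it.

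Hox proteins bind DNA together with TALE homeodomain cofactors of the Pbx and Meis families. Of 8 tested cofactor genes 2 were higher in MK2, 1 was lower and 5 did not pass, where 25.9% of all genes were higher and 28.6% lower. Pbx3 stood at 19.6 and 18.2 CPM in MK2 and 7.37 and 6.52 CPM in MK1 (log2 fold change 1.44, edgeR adjusted p = 4.94e-04). Meis3 stood at 3.14 and 4.23 CPM in MK2 and 22.2 and 19.1 CPM in MK1 (log2 fold change −2.48, edgeR adjusted p = 1.71e-04). The cofactors thus differed in both directions. Other homeobox genes related to Hox (the ParaHox genes, Evx, Gbx and Mnx list of 11) had no tested member, and Gbx2 with 2 counts in MK1 was the detected one.

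Genes of the complexes that silence or maintain Hox clusters were called in both directions, at shares near the 54.6% of all genes that were called. Of 19 tested Polycomb genes 5 were higher in MK2, 7 were lower and 7 did not pass. Bmi1, a core subunit of Polycomb repressive complex 1, stood at 115 and 106 CPM in MK2 and 62.7 and 60.8 CPM in MK1, and Phc2 of the same complex at 180 and 190 CPM in MK2 and 104 and 95.3 CPM in MK1. Suz12, a core subunit of the H3K27 methyltransferase complex, stood at 149 and 126 CPM in MK2 and 97.8 and 105 CPM in MK1, whereas Cbx6, a reader subunit, stood at 83.7 and 68.5 CPM in MK2 and 148 and 143 CPM in MK1. Phf19, an accessory subunit of that methyltransferase complex named here after its values were seen, was near its floor in MK2, with 3 and 4 counts in MK2 and 93 and 102 counts in MK1. Of 11 tested genes of MLL complexes and H3K27 demethylases 4 were higher, 2 were lower and 5 did not pass. Psip1, Wdr5 and Ash2l, which work with MLL proteins, were higher in MK2 by log2 fold changes of 1.11, 0.93 and 0.82. Kmt2a, which maintains Hox expression in blood and embryo and is named Mll1 in the table, had a log2 fold change of −0.48 (edgeR adjusted p = 0.0338). The Suz12 and Kmt2a (Mll1) calls ended without MK1 replicate 1 (edgeR adjusted p = 0.151 for Suz12 and 0.198 for Mll1), without MK1 replicate 2 (0.0852 and 0.0790) and without 1 MK2 culture, replicate 1 for Suz12 (0.0581) and replicate 2 for Mll1 (0.0902). The ranges over 12 settings were 0.00481 to 0.151 for Suz12 and 0.00385 to 0.198 for Mll1.

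Retinoic acid switches on the 3′ part of Hox clusters in embryos, and 15 genes of its supply and response were listed. Of 8 tested, 1 was higher in MK2, 2 were lower and 5 did not pass, where 25.9% of all genes were higher and 28.6% lower. Cyp26b1, which degrades retinoic acid, stood at 81.8 and 59.3 CPM in MK2 and 5.89 and 10.8 CPM in MK1 (log2 fold change 3.08, edgeR adjusted p = 3.17e-04). Aldh1a1, which makes it, had 0 counts in MK2 and 3.49 and 3.28 CPM in MK1, and Dhrs3, which reduces retinal, stood at 0.755 and 0.494 CPM in MK2 and 3.35 and 3.05 CPM in MK1 (log2 fold change −2.36). Of the called genes, Cyp26b1 was thus higher in MK2 while Aldh1a1 and Dhrs3 were lower, and any link to the Hox members was not tested.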

How the data were processed

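Total RNA of 2 MK2 and 2 MK1 cultures was made into libraries with an Illumina TruSeq kit, per the labels' protocols. The deposited values were raw counts of reads, which the authors had not normalized. Per the file headers, featureCounts 1.4.6-p4 summed exon reads by gene name, with no option for strand, on mm10. The submitters' processing notes name featureCounts 1.5.0, DESeq2 1.10.1, Bowtie2 2.2.6 and TopHat2 2.0.13. Of 23420 rows, 6644 had 0 counts in all libraries, and 27 rows with date-like names were not interpreted. No count column lacked a sample (0 columns). The command in the header calls the alignments of the second line MKU where the columns say MK2, and columns were matched to samples by the line names in the sample titles.

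The test was run in R 4.3.3 with edgeR 4.0.16 over the whole table (filterByExpr with a minimum count of 10, TMM scaling, quasi-likelihood F test, Benjamini-Hochberg adjustment at 0.05, two-sided), MK2 against MK1. The procedure was tested on simulated data. CPM used TMM-scaled library sizes, TPM the deposited gene lengths, and SEs of log2 fold changes came from the F statistic. A line with 0 counts was set to 3 counts over both its libraries, from 0.0987 to 0.119 CPM for 3 counts in a single library. Ratios with 1 to 3 counts have 95% exact conditional binomial intervals. Promoters and microRNAs were matched by symbol to RefSeq tables of GRCm38.p6.

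Members and gene lists were chosen with earlier results of these data known. All members enter the counts and sums, and 1 member and a few listed genes are not reported here by themselves. From each list, up to 4 called genes with the highest mean CPM and at least 1 CPM in 1 line were named, or else its most abundant gene, and called neighbours of at least 1 CPM. Uncalled list and neighbour genes, the marker genes at 0, Csf1r, Gbx2, Phf19 and Mir196b were named after their values were seen. Replicates differed beyond counting noise (median chi-square 4.28 per gene between MK2 cultures and 2.88 between MK1 cultures). Alternatives were other scalings, count filters, DESeq2 1.42.0, glmTreat, each library left out, and blocks on the replicate number, of which the crossed one was chosen after seeing the data.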

Additional observations from a re-analysis of the deposited data

How the results depend on the processing

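Of 25 tested members followed one by one, 17 kept their call, or its absence, and their direction under all other settings of the test against no change that tested them (12 settings, 11 for Hoxc4 and 10 for Hoxd4). Calls of Hoxa5, Hoxa6, Hoxb5 and Hoxb9 ended in at least 1 setting. Directions turned in 4 of them, none called: with each library left out in turn the log2 fold change ran from −0.16 to 0.14 for Hoxa3, −0.0232 to 0.41 for Hoxa4, −0.13 to 0.0832 for Hoxb2 and −0.29 to 0.29 for Hoxb4, which was also −0.0321 with upper-quartile scaling and −0.0026 with the replicate block. The glmTreat test against a log2 change of 1 left 405 genes higher and 1257 lower in place of 3235 and 3575, with 11 Hox members lower and 1 higher, 2 lower in Hoxa, 1 lower in Hoxb, and 2 listed genes higher and 7 lower in place of 13 and 14. Leaving out each library in turn gave 1527 to 3222 genes higher and 2189 to 3625 lower, 13 to 17 Hox members lower and 1 higher, 2 to 4 lower in Hoxa, 4 to 6 in Hoxb, 5 in Hoxc and 2 to 3 in Hoxd, and 7 to 14 listed genes higher and 9 to 17 lower. The fewest calls came without MK1 replicate 1, with as few in Hoxa without MK1 replicate 2. The lone library of a line was then assumed to vary like the other line. The log2 ratio of cluster sums ran from −0.51 to −0.40 in Hoxa, −0.80 to −0.63 in Hoxb and −1.85 to −1.28 in Hoxc. Without its most abundant member it was −0.70 in Hoxa, −1.01 in Hoxb and −0.76 in Hoxc, and Hoxd had no such ratio at 0 counts in MK2. Why these values moved was not tested, except that fewer libraries entered the fits that left 1 out. Replicate numbers only name cultures here: deviations of same-numbered cultures had a correlation of −0.15. With the replicate block 2733 genes were higher and 3175 lower, with 16 Hox members lower and 1 higher (Hoxa6 and Hoxb9 lost their calls, adjusted p = 0.0611 and 0.0505, as did the neighbours Skap2 and Hnrnpa1, 0.0835 and 0.0939, and the marker Dsg3, 0.0556), and with crossed numbers 3568 and 3886, with 18 and 1. Without the count filter 21 members were lower in place of 18.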
